A study of Mus musculus with 32 samples.

Results

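Klotho and the FGF receptors are the receptor side of the signal by which the bone hormone FGF23 acts on the parathyroid gland. The 6 genes described here are Kl, which encodes alpha-Klotho, Klb, which encodes beta-Klotho, and the 4 FGF receptor genes Fgfr1, Fgfr2, Fgfr3 and Fgfr4. They were chosen by name among 35458 genes, and each gene's level is the sum of the Salmon estimated read counts over its Ensembl transcripts in each of 32 libraries. Kl and Fgfr2 were read in every library, Fgfr1 was read in every library at a lower level, and Klb, Fgfr3 and Fgfr4 were at or near 0.

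The libraries came from parathyroid cells that carry tdTomato at the Pth locus, the gene of parathyroid hormone, in 8 experiments with 4 biological replicates each. Each library was made with SMART-Seq HT from 10 to 20 fluorescent cells picked by hand. The rat host cells were mouse embryonic stem cell derivatives taken from neonatal Gcm2-/- Wistar rats that had been complemented with Pth-tdTomato mouse stem cells. Gcm2 encodes the transcription factor that the parathyroid gland needs to form. The graft cells came from 12-week-old male Gcm2-/- mice into which such stem-cell-derived cells had been grafted, at a site the labels do not give. The mouse host cells came from 9-week-old Gcm2-/- mice on a BDF1B6 background complemented with the same stem cells, in 4 experiments, the fourth labelled male and the others female. The control cells came from C57BL/6-Pth tm1(P2A-tdTomato)/+ mice, which carry 1 reporter allele and their own Gcm2, in 1 experiment with 8-week-old males and 1 with 11-week-old females. The sex of the rat hosts is given as unknown, and the labels do not say how many animals stand behind a replicate. All groups share the reporter allele and the gate on its fluorescence. In the rat host experiment, neonatal age and host species cannot be told apart.

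Alpha-Klotho binds FGFR1 that carries the IIIc form of the third immunoglobulin-like domain, and also FGFR3 of that form and FGFR4, and turns them into receptors for FGF23. In the parathyroid gland FGF23 acting through Klotho and FGFR1 lowers the secretion of parathyroid hormone. Beta-Klotho serves FGF21 and FGF15, the mouse counterpart of human FGF19, in the same way in liver and fat. FGFR2 with the IIIb form of the domain, typical of epithelia, binds FGF7 and FGF10. The IIIb and IIIc forms of a receptor differ by 1 exon, chosen by splicing.

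Kl has 2 annotated transcripts in GENCODE M21, Kl-201, which codes for the full-length protein, and Kl-202, in which the third exon runs on into the third intron. Their sequences part after the third exon (chr5:150982742-150982771 on GRCm38, plus strand, is its last stretch), and both are shown from there because the Kl results are split by transcript. Capitals mark what follows that exon.
Kl-201 after exon 3: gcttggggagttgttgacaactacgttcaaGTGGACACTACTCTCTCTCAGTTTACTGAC
Kl-202 after exon 3: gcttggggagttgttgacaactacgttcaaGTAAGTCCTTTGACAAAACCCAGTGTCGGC
Kl-202 holds 4210 bases of intron and is annotated as a retained intron.

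The parathyroid label held in the data. Pth ranged from 42174.1 to 45379.1 CPM (counts scaled to a common library total) in rat host, from 88953.1 to 124554.5 in graft, from 71431.2 to 136845.4 in mouse host and from 78608.3 to 115837.9 in control libraries. Gcm2 had a median of 706.7 CPM in rat host, 559 CPM in graft, 946.7 CPM in mouse host and 631.4 CPM in control libraries. Library totals ran from 29471254 to 32264864 reads in the first control experiment and from 9470744 to 15098391 in the other 28 libraries. Reads of the Y-linked genes Ddx3y and Eif2s3y came to 9219 in the first control experiment, to 0 in the graft and to 1 in the fourth mouse host experiment, which are both labelled male. Whether the sex in a label is that of the host or of the picked cells is not stated.

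Per unit of transcript length, Kl stood above Fgfr2 and Fgfr2 above Fgfr1 in 32 of 32 libraries. Kl ranged from 104.4 to 363 TPM, which scales for transcript length and library total, with a median of 212.3, Fgfr2 from 12.8 to 108.4 with a median of 32.8, and Fgfr1 from 0.437 to 17 with a median of 6.6. The TPM ratio of Kl to Fgfr1 had a median of 32 and ran from 10.7 to 475, and that of Fgfr2 to Fgfr1 had a median of 5.16 and ran from 1.26 to 49.4. Summed over all transcripts, coding or not, the receptor gene with the highest level in these cells was Fgfr2.

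**Figure D1:**
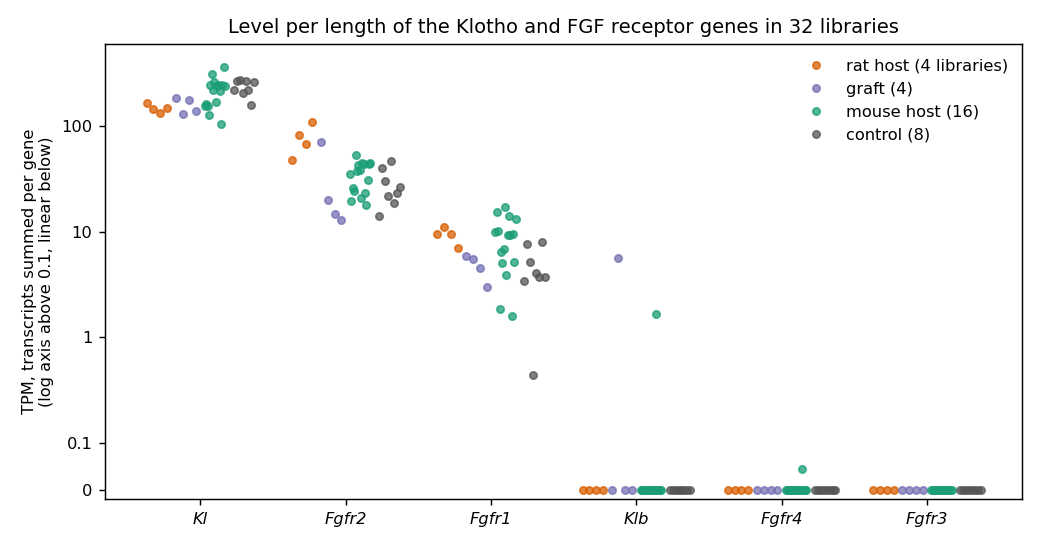
Level of the 6 genes in each of the 32 libraries, in TPM, with 1 point per library, by group. The axis is logarithmic and turns linear at its low end. Kl lies highest (104.4 to 363 TPM), Fgfr2 next (12.8 to 108.4 TPM) and Fgfr1 below it (0.437 to 17 TPM), while Klb has reads in 2 libraries, Fgfr4 in 1 and Fgfr3 in none.

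The other 3 genes were at or near 0. Klb had 297 reads (21.5 CPM, 5.65 TPM) in the second graft library and 86 reads (5.88 CPM, 1.67 TPM) in the fourth library of the third mouse host experiment, and none in the other 30. Fgfr4 had 2 reads in 1 library of the fourth mouse host experiment (0.183 CPM), and Fgfr3 had no read in any library. A count of 0 allows up to 3 reads, which is 0.325 CPM in the shallowest library and 0.00651 CPM over all libraries pooled. These limits cover counting error only, because the reads carry no molecular identifiers. Klb passed the filter on low counts only through its 2 libraries, so no fold change is given for it. The adipocyte marker sum of the graft library with Klb reads was 3.91 CPM, all of it from Plin1, a lipid droplet protein, and its part in the Klb reads was not tested.

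Kl was lowest in the rat host cells. Its levels there were 681.2, 580.7, 537.8 and 611.4 CPM. In the graft they were 1000.3, 755.1, 1058.9 and 898.3 CPM. The 16 mouse host libraries had a lowest value of 677.4 CPM, a median of 1181.7 and a highest of 1789.6, and the 8 control libraries 896.3, 1318.8 and 1452.6 CPM. In CPM the rat host libraries lay below all control libraries, and 1 of them, at 681.2 CPM, lay above the lowest mouse host library. In TPM the groups overlapped, since the rat host ran from 132.3 to 164.6 TPM and the lowest control library had 157.9 TPM. The graft overlapped both mouse host and control libraries.

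Kl differed among the 8 experiments in an F test, while single experiments could spread widely, from 692.5 to 1789.6 CPM in the fourth mouse host experiment. Means ± SD over 4 replicates were 602.8 ± 60.4 CPM in the rat host, 928.2 ± 133.1 in the graft, and 819.9 ± 99.7, 1292.8 ± 185.7, 1150.3 ± 125.7 and 1259.3 ± 448.8 in the 4 mouse host experiments in turn. The controls had 1329.2 ± 152.3 CPM in the first experiment and 1206.5 ± 225.7 in the second. In order of their means, all 7 neighbouring pairs of experiments overlapped in their libraries. In edgeR's quasi-likelihood F test across the 8 experiments, Kl passed (F = 8.93, adjusted p = 0.000406) and Fgfr2 (F = 2.93, adjusted p = 0.108) and Fgfr1 (F = 0.786, adjusted p = 0.856) did not, so 1 of the members was called where 10.9% of 13135 genes were. Without the second replicate of every experiment Kl lost the call (adjusted p = 0.0565). Among the 4 mouse host experiments no member was called by edgeR (Kl adjusted p = 0.283, Fgfr2 0.756, Fgfr1 0.999) or DESeq2, where edgeR called 1.35% of genes after adjustment. Of Kl, Fgfr1 and Fgfr2, the members tested there, Kl had an unadjusted p under 0.05 (0.0218), which ranked 938 among 12195 genes. The share of all genes under that p is not given here.

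When experiments, rather than libraries, were taken as the replicates, the lower Kl of the rat host was not called. The log2 fold change of rat host over mouse host was -0.85 (SE 0.26, 95% confidence interval -1.45 to -0.26, adjusted p = 0.232, edgeR on summed experiments), and that of rat host over control -1.02 (SE 0.28, interval -1.66 to -0.38, adjusted p = 0.192). In that fit 0.643% of genes were called between rat host and mouse host and 0.261% between rat host and control, and 0 of the members in either comparison. At an unadjusted p under 0.05 there were 2 members, Kl and Fgfr2, in rat host over mouse host, where 11.6% of all genes were, and 3, with Fgfr1, in rat host over control, where 11.7% were. DESeq2 called Kl against mouse host and Kl and Fgfr2 against control (Kl adjusted p = 0.0191 and 0.00925), while limma-voom called none. The share of all genes that DESeq2 called is not given here. The DESeq2 call of Klb against mouse host rests on 1 mouse host library, with no read in the rat host, and nothing is read from it. Leaving out the first mouse host experiment also brought Kl past the threshold (log2 fold change -0.98, adjusted p = 0.041, and -1.02, adjusted p = 0.0442). On the log2(TPM + 1) scale the differences were smaller, at -0.52 and -0.66. Pth in the same rat host libraries was below every mouse host library, and Casr, the calcium-sensing receptor, ranged from 325.4 to 416 CPM there and from 271.9 to 931.8 in mouse host libraries. In pooled cells, fewer Kl-expressing cells and less Kl RNA per cell cannot be told apart.

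Kl was not called in the comparisons without rat host cells. The log2 fold change of graft over mouse host was -0.29 (SE 0.25, interval -0.86 to 0.28, adjusted p = 0.664), that of graft over control -0.46 (SE 0.27, interval -1.08 to 0.17, adjusted p = 0.693) and that of mouse host over control -0.17 (SE 0.19, interval -0.6 to 0.26, adjusted p = 0.972).

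**Figure D2:**
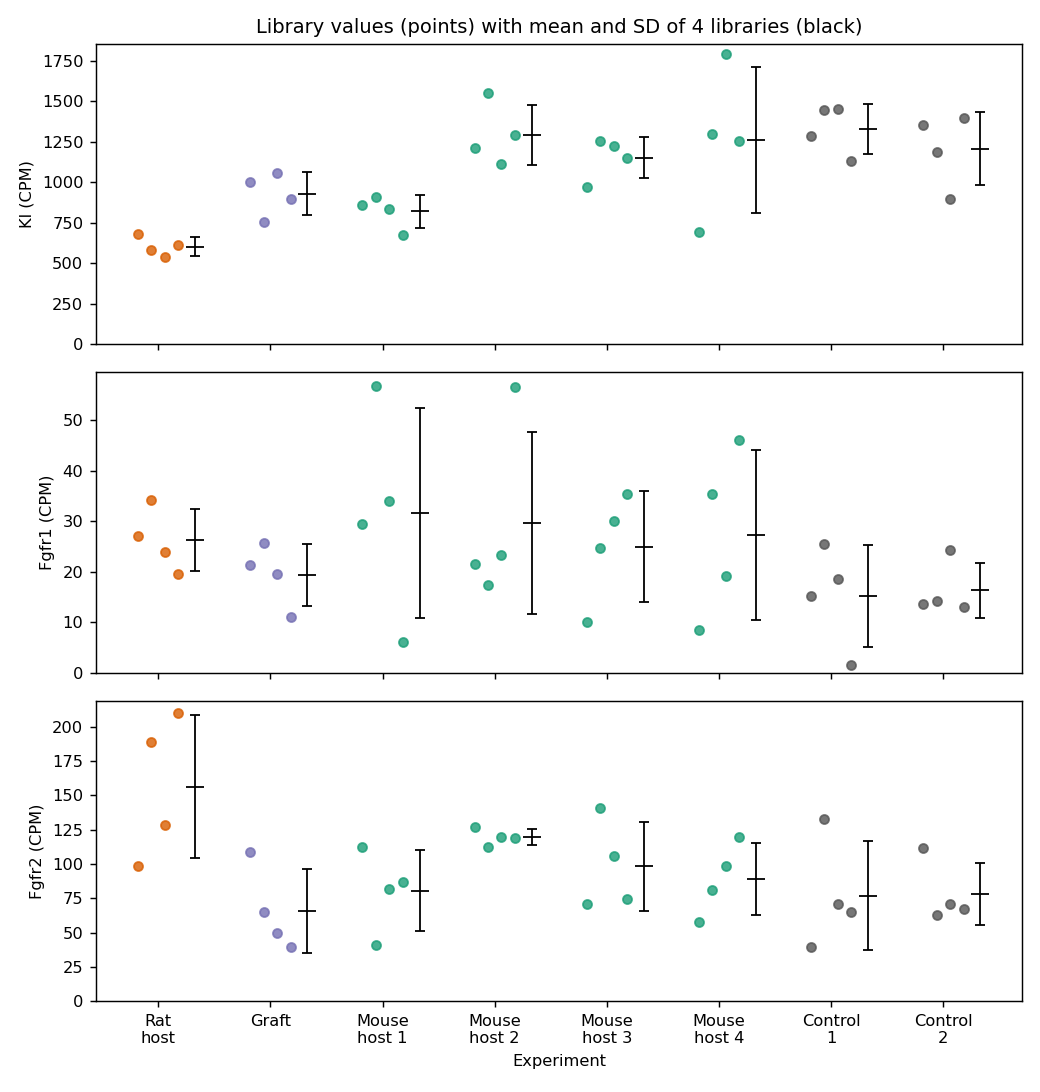
Kl, Fgfr1 and Fgfr2 in CPM by experiment, with 1 point per library and the mean and SD over 4 replicates. Kl is lowest in the rat host (602.8 ± 60.4 CPM) and Fgfr2 highest there (156.3 ± 52 CPM), and the 4 mouse host means of Fgfr1 (25 to 31.6 CPM) lie above both control means (15.2 and 16.3 CPM).

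Fgfr1, the receptor that alpha-Klotho uses in the parathyroid, varied mostly among replicates. Its levels were 27.1, 34.3, 24 and 19.6 CPM in the rat host and 21.3, 25.7, 19.5 and 11 CPM in the graft. The 16 mouse host libraries had a lowest value of 6.02 CPM, a median of 27.1 and a highest of 56.7, and the 8 control libraries 1.53, 14.7 and 25.5 CPM. The libraries of mouse host and control overlapped, while the means of all 4 mouse host experiments (31.6 ± 20.8, 29.7 ± 18, 25 ± 10.9 and 27.3 ± 16.8 CPM) lay above both control means (15.2 ± 10.1 and 16.3 ± 5.36 CPM).

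The log2 fold change of Fgfr1 in mouse host over control was 0.81 (SE 0.24, interval 0.26 to 1.36). Its unadjusted p of 0.00959 ranked 81 among 15698 genes and its adjusted p was 0.892 by edgeR on summed experiments. In that comparison 0% of genes and 0 of the members were called by edgeR, and 1 member, Fgfr1, had an unadjusted p under 0.05, as did 4.4% of all genes. The limma-voom fit called none, while DESeq2 called 2 members, Fgfr1 (adjusted p = 0.0197) and Klb. The Klb call rests on a single mouse host library, and nothing is read from it. With each single library left out in turn, or each experiment, the fold change stayed between 0.62 and 0.98. With single libraries as replicates it was 0.81 (SE 0.58, adjusted p = 0.768) between experiments labelled female. Between those labelled male it was 0.84 (SE 0.68, adjusted p = 0.967). The difference of these, -0.04, had an adjusted p of 1. Each rests on 1 control experiment, and the male one on 1 mouse host experiment, so these p-values measure the spread between libraries. Reads of Ddx3y and Eif2s3y came to 1 in that mouse host experiment and to 9219 in the male control experiment. On summed experiments the rat host differed from the mouse host by -0.04 (SE 0.3, interval -0.73 to 0.65, adjusted p = 1) and from control by 0.77 (SE 0.32, interval 0.03 to 1.5, adjusted p = 0.404). The graft differed by -0.49 from mouse host (interval -1.2 to 0.22, adjusted p = 0.564) and by 0.32 from control (interval -0.43 to 1.06, adjusted p = 0.799).

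Fibroblasts also express Fgfr1, so their markers were summed in each library. Of 8 listed genes, Fbln1 was read in every library (128.7 to 570.2 CPM, median 280.1). The other 7, taken without Fbln1 after its values were seen, summed to between 0.34 and 11.89 CPM in the rat host, 0.51 and 412.08 in the graft, 0 and 2342.18 in the mouse host and 0 and 3188.67 in control libraries, with medians of 0.9, 52.42, 0.66 and 2.15 CPM in the same order. The highest sums stood in the fourth library of the second mouse host experiment, where Fgfr1 was 56.5 CPM, and in the third library of the second control experiment, where it was 24.3 CPM. Each of these was the highest Fgfr1 value of its experiment. Without both libraries the fold change of mouse host over control was 0.84 (adjusted p = 0.893).

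Within experiments Fgfr1 scattered more than Kl or Fgfr2. The SD of log2(CPM + 1) among replicates was 0.92 for Fgfr1, larger than in 59.6% of the 4468 genes within 2-fold of its mean level. It was 0.51 for Fgfr2 (larger than 74.6% of 2794 such genes) and 0.28 for Kl (larger than 80.7% of 109).

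Fgfr2, a receptor with epithelial and mesenchymal forms, was highest in the rat host. Its levels there were 98.2, 188.8, 128.2 and 210.1 CPM, and in the graft 109, 65, 49.9 and 39.6 CPM. Mouse host libraries had a lowest value of 41 CPM, a median of 102.2 and a highest of 140.7, and control libraries 39.7, 68.8 and 132.5 CPM. In the rat host 2 of 4 libraries lay above every library of the other groups, and the other 2 lay within their range.

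The log2 fold change of Fgfr2 in rat host over mouse host was 0.75 (SE 0.23, interval 0.21 to 1.29, adjusted p = 0.253) and over control 1.07 (SE 0.26, interval 0.47 to 1.68, adjusted p = 0.157) by edgeR on summed experiments. DESeq2 called the difference from control (adjusted p = 0.00718), and so did edgeR with single libraries as replicates (adjusted p = 0.0241). In mouse host over control the value was 0.32 (SE 0.19, interval -0.13 to 0.76, adjusted p = 0.892). In graft over mouse host it was -0.52 (SE 0.26, interval -1.11 to 0.07, adjusted p = 0.465), and in graft over control -0.2 (SE 0.27, interval -0.83 to 0.42, adjusted p = 0.869). Between graft and mouse host 0.115% of genes and 0 of the members were called, with 0 members at an unadjusted p under 0.05 (12.4% of all genes) and 0 by DESeq2. Between graft and control 0.0382% of genes and 0 of the members were called, and of Kl, Fgfr1 and Fgfr2 0 had an unadjusted p under 0.05 and 0 were called by DESeq2. Klb, with reads in 1 graft library and none in any control library, had such a p and a DESeq2 call, and nothing is read from either.

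Between the 2 control experiments, which differ in sex, age and depth, no member was called by edgeR or DESeq2 and none had an unadjusted p under 0.05. The log2 fold changes of the second over the first were -0.13 for Kl, 0.12 for Fgfr1 and 0.03 for Fgfr2, each with an adjusted p of 1, where 0.0173% of genes were called.

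**Figure D3:**
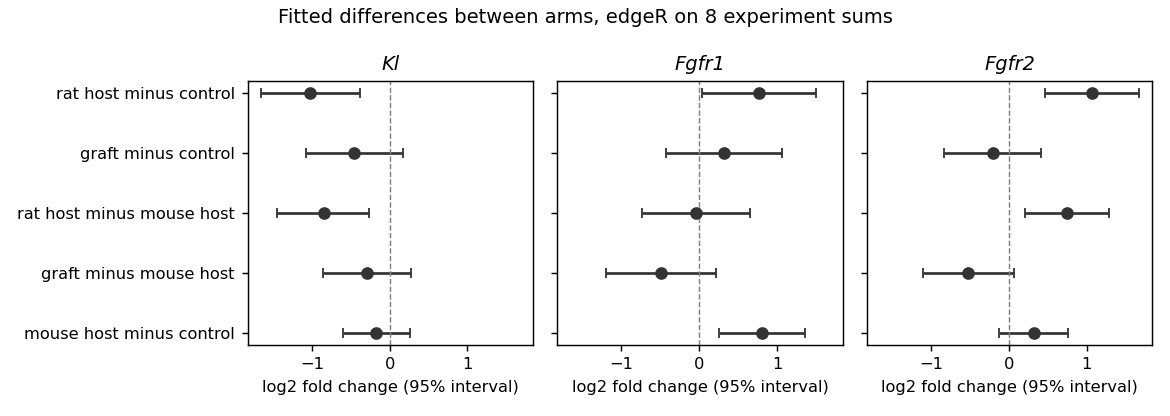
Log2 fold changes of Kl, Fgfr1 and Fgfr2 with 95% confidence intervals in the 5 comparisons of groups, with experiments as replicates. The intervals of Kl and Fgfr2 in the rat host comparisons exclude 0 before adjustment. So do those of Fgfr1 in mouse host over control and in rat host over control. None of the adjusted p-values passed 0.05.

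Fgfr1 reads were mostly of the IIIc form and Fgfr2 reads mostly of the IIIb form. Of the Fgfr1 reads, 66.4% were assigned to transcripts with the IIIc exon, 24.6% to transcripts with IIIb, 3.02% to Fgfr1-208, which has both, and 6% to transcripts with neither. IIIc exceeded IIIb in TPM in 25 of 32 libraries. Of the Fgfr2 reads, 75.2% were assigned to IIIb transcripts, 6.1% to the IIIc transcript Fgfr2-215 and 18.7% to transcripts with neither, and IIIb exceeded IIIc in 32 of 32 libraries. In TPM the transcripts with neither weighed more, with a median share over libraries of 34.4% (7.13% to 60.8%) against 59% for IIIb (30.2% to 89.3%). In the graft they held 51.8% of the summed Fgfr2 TPM and IIIb 45.4%. In mean TPM over 4 libraries, the IIIc form of Fgfr1 stood above that of Fgfr2 in each experiment, at 6.06 against 1.87 TPM in the rat host, 2.56 against 0.81 in the graft and 2.1 against 1.69 and 2.93 against 0.121 in the control experiments. In the third and the fourth mouse host experiments the forms were close, at 4.13 against 3.66 and 4.15 against 3.45 TPM. The first control experiment was close as well. Single libraries did not all keep the order of the means. In the rat host the fourth library had 2.862 against 5.545 TPM and the second 8.595 against 1.944.

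The IIIc share of Fgfr1 reads was 78.9% in the rat host, 66.1% in the graft, 47.4%, 68.7%, 72.5% and 65.5% in the 4 mouse host experiments in turn and 60.3% and 76.5% in the control experiments. The first mouse host experiment had about as much IIIb (47.8%) as IIIc. Within experiments the IIIc share of single libraries spread widely, as in the graft, where it ran from 0% to 90.3%, and in the first control experiment, where it ran from 10.7% to 99.6%. A library held between 44 and 811 Fgfr1 reads, so these splits rest on few reads.

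Single Fgfr1 transcripts followed the same spread. The leading transcript was Fgfr1-202 (IIIc) in 14 libraries, Fgfr1-213 (IIIb) in 6, Fgfr1-201 (IIIc) in 5 and Fgfr1-203 in 4, with 3 others leading 1 library each. Fgfr1-201 took a median share of 35% of the gene's reads in the rat host (23.6% to 40.4%), 27.5% in the graft (0% to 60.9%), 21% in the mouse host (0% to 53.6%) and 6.76% in control libraries (0% to 21.6%). Its rat host libraries lay above all control libraries, and the other groups overlapped.

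The difference of Fgfr1-201 in mouse host over control was 1.94 on the log2 scale (SE 0.57, unadjusted p = 0.0081, adjusted p = 0.901), in rat host over control 2.6 (SE 0.7, adjusted p = 0.41) and in graft over control 2.18 (SE 0.7, adjusted p = 0.463). For Fgfr1-202 in graft over mouse host it was -2.2 (SE 0.82, adjusted p = 0.481). None of the 13 Fgfr1 and Kl transcripts tested was called by edgeR in any of the 5 comparisons. At an unadjusted p under 0.05 there were 2 in mouse host over control, 1 in rat host over mouse host, 1 in graft over mouse host, 2 in rat host over control and 1 in graft over control. Among all 54529 transcripts the shares called after adjustment were 0%, 0.0458%, 0.103%, 0.0367% and 0.0569% in the same order. The share of all transcripts at an unadjusted p under 0.05 is not given here, so the unadjusted counts have no background.

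**Figure D4:**
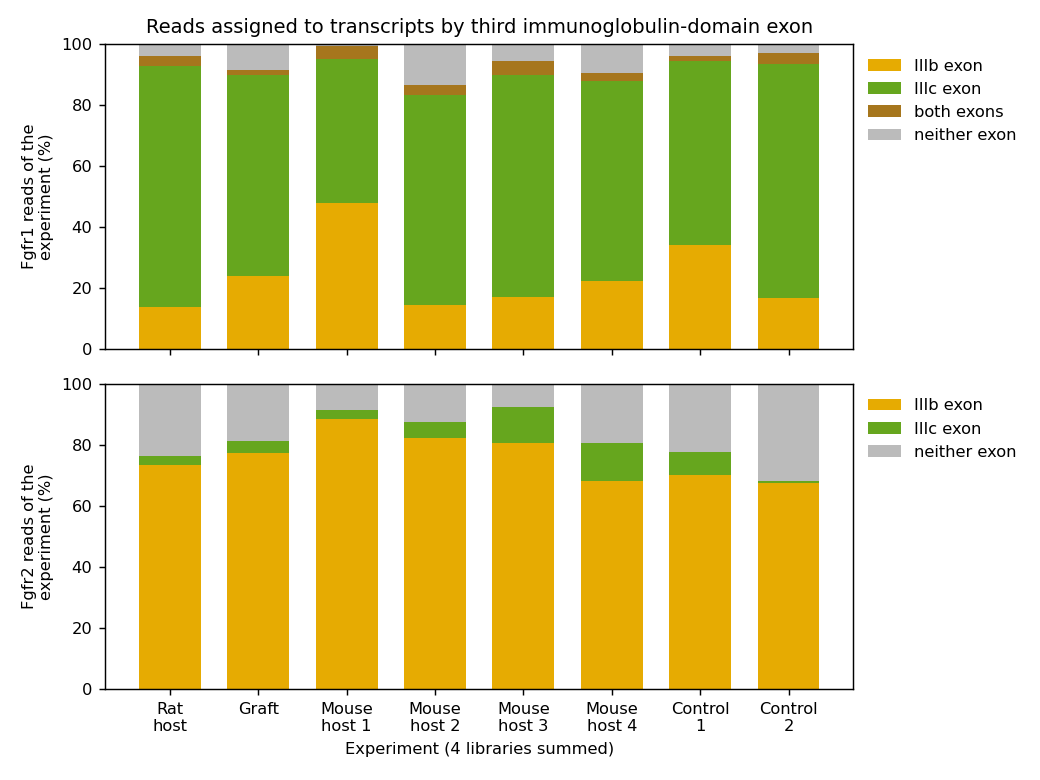
Share of Fgfr1 and Fgfr2 reads assigned to transcripts with the IIIb exon, the IIIc exon, both or neither, by experiment, with reads summed over 4 libraries. IIIc leads for Fgfr1 except in the first mouse host experiment (47.4% IIIc, 47.8% IIIb), and IIIb leads for Fgfr2 in all 8 experiments (67.5% to 88.5%).

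For Fgfr2 the leading transcript was Fgfr2-211, a IIIb form, with 24316.1 estimated reads and reads in all 32 libraries. Its share was 42.4% to 64.1% in the rat host, 51.9% to 72.4% in the graft, 48.6% to 87% in the mouse host and 44.8% to 58.5% in control libraries. IIIc reads stood in 18 libraries only, and in the second control experiment in 1 of 4 (2.57% of that library's Fgfr2 reads).

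Most Fgfr2 reads with neither exon belonged to Fgfr2-226, which joins the flanking exons, skips IIIb and IIIc and is annotated as a target of nonsense-mediated decay. It was singled out after its values were seen. It held 10.7% to 27.8% of the gene's reads in the rat host (4 of 4 libraries), 0% to 16.2% in the graft (3 of 4), 0% to 23.4% in the mouse host (8 of 16) and 14.1% to 35.5% in control libraries (8 of 8). The median shares were 15.1% in the rat host, 10.3% in the graft, 0.745% in the mouse host and 18.9% in control libraries. Its log2 fold change in mouse host over control was -1.19 (SE 0.53, adjusted p = 0.901), and in rat host over mouse host 2.14 (SE 0.62, adjusted p = 0.497).

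For Kl, 95.3% of the reads were assigned to Kl-201 and 4.69% to the retained-intron transcript Kl-202. The Kl-202 share over summed reads was 2.75% in the rat host (1.43% to 4.21% in single libraries), 3.27% in the graft (1.35% to 6.92%), 1.85% (0.174% to 3.29%), 4.14% (3.41% to 5.17%), 6.31% (3.03% to 9.76%) and 8.27% (6.98% to 11.2%) in the 4 mouse host experiments in turn, and 4.1% (2.41% to 7.53%) and 5.74% (4.22% to 7.32%) in the control experiments. Mouse host experiments 1 and 4 did not overlap, and the rat host overlapped the first control experiment but lay just below all 4 libraries of the second (4.21% at most against 4.22% at least).

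Most of the lower Kl in the rat host lay in the coding transcript. Kl-201 differed by -0.81 on the log2 scale from mouse host (SE 0.24, adjusted p = 0.495) and by -0.98 from control (adjusted p = 0.388), and Kl-202 by -1.82 (SE 0.85, adjusted p = 0.903) and -1.84 (SE 0.89, adjusted p = 0.864). Between mouse host and control Kl-202 differed by -0.01.

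**Figure D5:**
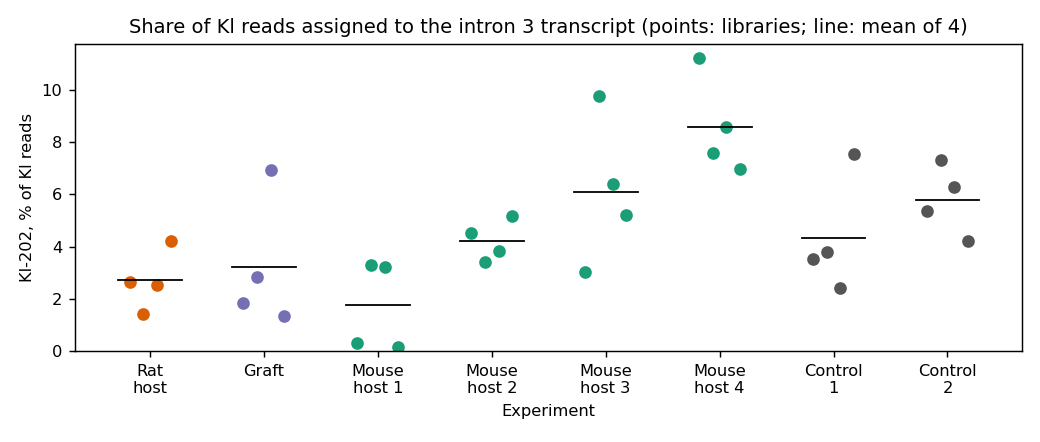
Share of Kl reads assigned to the retained-intron transcript Kl-202, in percent, one point per library, by experiment. The fourth mouse host experiment has the highest shares (6.98% to 11.2%) and the first the lowest (0.174% to 3.29%).

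The genes whose levels followed each member most closely over the 32 libraries, among 8942 compared, are given by Pearson's r of log2(CPM + 1), as a description, since the libraries share experiments and depth. For Kl these were Ints6l (r = 0.81), a relative of an Integrator complex subunit, Dop1b (0.78) and Casr (0.76). Ints6l ranged from 492.6 to 590.2 CPM in the rat host and from 579 to 1618.2 in the mouse host, and Dop1b from 133.5 to 244.2 in the rat host and from 349.5 to 1353.2 in the mouse host. For Fgfr1 they were Rhpn2 (0.70), Wsb1 (0.67) and Zfp125 (0.67), and for Fgfr2 they were Slc25a11 (0.70), Xpo1 (0.68) and Aldh4a1 (0.68). Between members, r was 0.02 for Kl and Fgfr1, -0.12 for Kl and Fgfr2 and 0.29 for Fgfr1 and Fgfr2.

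Of 126 other genes of FGF signalling listed in 13 groups, 125 were matched by name, 115 had a read and 110 were tested. None of the 110 was called by edgeR in mouse host over control, where 8 had an unadjusted p under 0.05 (4.4% of all genes did) and DESeq2 called 1, Spry4. Their median log2 fold change was 0.02, against 0 over all genes. In rat host over mouse host 1 was called, the immediate early gene Egr1, where 0.643% of all genes were. There 18 had an unadjusted p under 0.05 (11.6% of all genes did) and DESeq2 called 8, with a median log2 fold change of 0.21 against -0.03 over all genes. In graft over mouse host none was called and 12 had an unadjusted p under 0.05 (12.4% of all genes did), with a median of -0.16 against -0.09, and DESeq2 called 3. In rat host over control none was called and 21 had such a p (11.7% of all genes), and DESeq2 called 13. In graft over control none was called and 5 had such a p (8.84% of all genes), and DESeq2 called 4. The share of all genes that DESeq2 called is not given here, so its counts have no background and nothing is read from them.

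Among the ligands, the endocrine genes Fgf15, Fgf21 and Fgf23 had no read in any library. Of 15 paracrine ligand genes 8 had a read. Fgf9 and Fgf20 were read in 30 libraries each, Fgf1 in 22 and Fgf2 in 17. Fgf9 had a median of 9.19 CPM in the rat host, 9.59 in the graft, 13.2 in the mouse host and 5.62 in control libraries, and its log2 fold change in mouse host over control was 0.93 (adjusted p = 0.892). Fgf20 had medians of 7.78, 21.1, 10.7 and 22.9 CPM in the same groups, with a log2 fold change in mouse host over control of -1.21 (SE 0.45, adjusted p = 0.892). Fgf1 was read in 1 of 4 rat host libraries, at 0.212 CPM, and had a median of 5.4 CPM in mouse host libraries and of 3.65 CPM in control libraries. Its adjusted p in rat host over mouse host was 0.0826.

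Of the heparan sulfate genes and co-receptors, which FGFs need for binding, 14 of 19 tested had positive values in rat host over mouse host, with a median of 0.78 and none called. Sdc1, a cell surface proteoglycan, ranged from 10.2 to 21.1 CPM in the rat host and from 0 to 0.788 in the mouse host, without overlap (adjusted p = 0.189). Ext2, which builds the heparan sulfate chain, had a log2 fold change of 0.73 in rat host (SE 0.23, adjusted p = 0.259) and of -0.76 in graft over mouse host (SE 0.25, adjusted p = 0.295).

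In the signal chain inside the cell, edgeR on summed experiments called none of the listed adaptors or kinases in any comparison of groups, while DESeq2 called Cbl, Crk and Map2k1 in rat host over mouse host and Crk, Shc1 and Map2k1 in rat host over control. Of the adaptors, Crk had a log2 fold change of 1.46 in rat host over mouse host (adjusted p = 0.102) and Cbl, a ubiquitin ligase that removes receptors, 1.84 (SE 0.45, adjusted p = 0.142). Frs2, the docking protein of FGF receptors, had a median of 26.1 CPM in the rat host, 41.2 in the graft, 31 in the mouse host and 28.5 in control libraries. Map2k1, the kinase above ERK, ranged from 214.8 to 241.2 CPM in the rat host, from 64.1 to 251.9 in the mouse host and from 76.9 to 117.4 in control libraries, with a log2 fold change in rat host over mouse host of 0.95 (adjusted p = 0.107).

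Of the 12 feedback inhibitors tested in mouse host over control, 8 had positive values, with a median of 0.46 and none called. Spry4, which damps Ras signalling, had a lowest value of 0.164 CPM, a median of 5.74 and a highest of 18.3 in the mouse host, and 0, 1.5 and 2.75 CPM in control libraries. Its log2 fold change was 2.27 (SE 0.6, unadjusted p = 0.00546, adjusted p = 0.892). Dusp6, the phosphatase of ERK, had a median of 41.5 CPM in the rat host and 88.5 in the mouse host (log2 fold change -1.11, adjusted p = 0.447).

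Egr1, which growth factor signals induce within minutes, fell in the rat host. Its lowest, median and highest levels were 0.51, 0.747 and 2.54 CPM in the rat host, 0.461, 64.2 and 389.1 CPM in the mouse host and 0.168, 31.5 and 166 CPM in control libraries, and the graft ranged from 62 to 105 CPM. The rat host libraries thus lay within the low end of the mouse host range. The log2 fold change of rat host over mouse host was -6.51 (SE 1.06, adjusted p = 0.0452), and the call was lost with limma-voom and with offsets for effective length. It was also lost without the first or second control experiment, without mouse host experiment 2 or 4 and without both libraries with high fibroblast markers. Single libraries whose removal ended it were replicates 1 and 2 of control experiment 1, replicates 1 and 3 of control experiment 2, replicates 3 and 4 of mouse host experiment 1, replicate 4 of mouse host experiment 2 and replicate 3 of mouse host experiments 3 and 4. Etv5, another target of FGF signals, went the other way without being called (1.62, SE 0.48, adjusted p = 0.23).

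Splicing regulators that act on the IIIb and IIIc exons had a median log2 fold change of 0.75 in rat host over mouse host, with 7 of 8 positive and none called. Ptbp1, which represses IIIb inclusion in Fgfr2, had levels between 140.4 and 186.7 CPM in the rat host, 35.4 and 66.9 in the graft, 36.2 and 115.2 in the mouse host and 47.9 and 132.8 in control libraries (rat host over mouse host 1.28, SE 0.23, adjusted p = 0.0696). Its rat host libraries lay above all others. Esrp1, which promotes IIIb, had a median of 26.8 CPM in the rat host, 15.4 in the mouse host and 8.42 in control libraries (rat host over mouse host 0.99, adjusted p = 0.387). The IIIb share of Fgfr2 in the rat host, 73.4%, lay within the range of the mouse host experiments.

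Among the genes that handle Klotho at the membrane, Adam10 and Adam17, the proteases that shed it, had log2 fold changes of 1.36 (adjusted p = 0.315) and 1.25 (adjusted p = 0.278) in rat host over mouse host. In graft over mouse host the sodium pump subunit gene Atp1b2 had the smallest p of the listed genes (-2.47, SE 0.5, adjusted p = 0.125) and did not pass. Vdr, the vitamin D receptor, differed by 0.11 in rat host over mouse host (adjusted p = 0.934) and by -0.13 in mouse host over control (adjusted p = 0.999).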

How the data were processed

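The authors deposited 1 table per library, with expected counts (estimated reads) and TPM per Ensembl transcript. Per the submitters' processing notes they used Salmon and GRCm39. Its version was not given in the sources used here. Of 116747 transcripts, 115685 were matched by ID to GENCODE M21 (GRCm38), and the 1062 unmatched ones held 0.493% of reads. Expected counts were summed per gene and rounded to whole reads. CPM scales them by the summed reads of the library after adjustment by its TMM factor, not by the summed reads alone. No column of per-sample values was left unmapped (0).

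Groups were compared with edgeR 4.0.16 (TMM, quasi-likelihood test, filterByExpr) on counts summed per experiment, which leaves 4 residual degrees of freedom, with Benjamini-Hochberg adjustment over all genes or transcripts tested and a threshold of 0.05. Comparisons between experiments used the single libraries. Since the labels do not say that replicates come from separate animals, p-values measure the spread between these libraries or experiments. Alternatives were RLE size factors, DESeq2 1.42.0, limma 3.58.1 (voom, and log2(TPM + 1)), effective-length offsets, no filter, single libraries with and without a replicate block, and leaving out each experiment or library. No pair of libraries among 48 agreed within sampling noise. Same-numbered libraries did not deviate together (median correlation -0.0064 over 112 pairs), so the numbers do not pair them. The procedure was tested on simulated data in which libraries varied independently, with no spread added between experiments. That test therefore does not show how the group comparisons behave under such spread. Members and lists were chosen with earlier results of these data known. Besides the members, the text names, per list and comparison, the 2 genes with the smallest p averaging at least 1 CPM (up to 24 per comparison), those called, the 3 genes most correlated with each member averaging at least 8 CPM, and Fgfr1 and Kl transcripts with at least 5% of reads in an experiment. Genes named outside that rule were chosen after their values were seen. Intervals are at 95% confidence. Some listed genes and sequences are not reported here.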

Additional observations from a re-analysis of the deposited data

Results flagged for a closer look

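Of 67 sets of 4 libraries tested for a single library far from the other 3 (Dixon's gap ratio), 7 stood apart. In 4 of these 1 library had a value and the other 3 were at 0, which sets the ratio at its highest, and of the other 63 sets 3 stood apart, where chance gives about 1 in 20. Fgfr1 was highest at 56.5 CPM in 1 library of the second mouse host experiment and at 24.3 CPM in 1 library of the second control experiment. Both libraries also had the highest sums of fibroblast markers, at 2342.18 and 3188.67 CPM without Fbln1, and their part in the Fgfr1 values was not tested. Fgfr2 was highest at 111.5 CPM in 1 library of the second control experiment, and the IIIc share of Fgfr2 reads was 2.57% in 1 library of that experiment and 0 in the other 3. Klb stood at 21.5 CPM in 1 graft library and at 5.88 CPM in 1 library of the third mouse host experiment, with no read in the others of each set. Fgfr4 stood at 0.183 CPM in 1 library of the fourth mouse host experiment, which is 2 reads and below the limit that a count of 0 allows.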

How the results depend on the processing

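The counts of members called (0 in each comparison of groups) changed with the test. Shares of all genes called are given only for edgeR on summed experiments and for its F tests. Counts from the other fits therefore have no background here. DESeq2 called 2 in mouse host over control (Fgfr1, Klb), 2 in rat host over mouse host (Kl, Klb), 2 in rat host over control (Fgfr2, Kl) and 1 in graft over control (Klb), where each Klb call rests on 1 library. Single libraries as replicates, without and with the replicate block, called Kl in rat host over mouse host (1 member, log2 fold change -0.91, adjusted p = 0.00102 without the block and -0.9, 0.00198 with it) and Kl and Fgfr2 in rat host over control (2 members). In the test across 8 experiments, 1 member was called with the block and 2 by DESeq2. Leaving out 1 replicate number or 1 experiment gave 0 to 2 members across the 8 experiments and 0 to 1 in each rat host comparison. For the 110 pathway genes, calls in mouse host over control, rat host over mouse host, graft over mouse host, rat host over control and graft over control were 0, 1, 0, 0 and 0. DESeq2 gave 1, 8, 3, 13 and 4. Single libraries gave 0, 8, 1, 6 and 1, and with the replicate block 0, 6, 1, 6 and 1. In the rat host comparisons with mouse host and control, limma-voom gave 3 and 0, limma on TPM 5 and 4, and no filter 2 and 1. Leaving out an experiment or library gave 0 to 2 and 0 to 1, and without the 2 libraries highest in fibroblast markers, chosen after seeing the data, the rat host and mouse host comparison had 0. Kl-201 was the 1 transcript called in each rat host comparison with single libraries, with and without the block. Values that changed sign were near 0: Fgfr1 in rat host over mouse host was 0.08 on TPM, 0.05 without the libraries high in fibroblast markers and up to 0.08 and down to -0.24 on leaving out an experiment or library, and Fgfr2 in graft over control was 0.09 on TPM. The cause of these changes was not tested. Against the same single-library fits without it, the block changed no other call, and the numbers do not pair the libraries. With 1 rat host and 1 graft experiment, their spread is taken from the mouse host and control experiments, and Fgfr1 transcript shares are limited by 44 to 811 reads per library.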
